A study of Homo sapiens with 2 samples.

Results

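The PROX1 peaks described here lie around 4 genes, BCL2L1, ALK, NKD2 and B3GALT5, and number 35 of the 23450 peaks in the deposited list. Peaks were taken by position, with their centre inside a window of hg18 that holds the gene and about 50 kb on either side. The windows are chr20:29666000-29824000 for BCL2L1 (158 kb), chr2:29219000-30048000 for ALK (829 kb), chr5:1012000-1142000 for NKD2 (130 kb) and chr21:39800000-40016000 for B3GALT5 (216 kb). The genes were chosen from this list because each window holds a peak with many tags and a high fold over input. Tags and folds of the leading peaks are therefore given as descriptions, with no test.

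The list comes from chromatin immunoprecipitation and sequencing (ChIP-seq) of PROX1 in SW480R, a subpopulation of the established human colorectal adenocarcinoma line SW480. The PROX1 library was made from formaldehyde-fixed, enzymatically fragmented chromatin with 5 µg of a goat antibody against the human protein, and 3 independent immunoprecipitations were pooled before sequencing. The other library was input DNA of the same cells, taken without antibody. It enters the list at least through the fold over input. The deposited p-value never rose with fold among the peaks described here, so it may carry the input too. Neither library carried a treatment or a genetic change in the labels. With 1 library of each kind there is no replicate spread, so the comparisons below are between peaks of one pair of libraries, and intervals cover counting error only. Reads without molecular identifiers are not independent molecules, so these intervals can be too narrow.

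PROX1 is a homeodomain transcription factor of lymphatic, hepatic and lens development that is also switched on in a subset of colorectal tumours, where it is known as a target of Wnt signalling. The genes have different roles. BCL2L1 encodes BCL-XL, a mitochondrial protein that blocks apoptosis, and ALK encodes a receptor tyrosine kinase of the developing nervous system that acts as an oncogene when fused or mutated. NKD2 encodes a Dishevelled-binding antagonist of Wnt signalling, and B3GALT5 encodes a galactosyltransferase that builds the carbohydrate chains from which Lewis a antigens are made in gut epithelium. No expression was measured, so the labelled cell type could not be checked against its markers.

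The 35 peaks held 3096 of the 897512 tags in all listed peaks, and they were spread unevenly over the genes. ALK had 18 peaks, BCL2L1 9, B3GALT5 6 and NKD2 2. Per Mb of window this is 57 peaks for BCL2L1, 27.8 for B3GALT5, 21.7 for ALK and 15.4 for NKD2, against 7.6 over the nuclear genome. The chromosomes that carry them held 12.5 peaks per Mb (chromosome 20), 8.14 (21), 8.62 (2) and 7.82 (5). Windows with a high peak were picked, so their densities describe them and were not tested. A fold of at least 26.06, which is 2 times the lowest listed fold, is called strong here. It was reached by 17 of the 35 peaks (48.6%, exact Clopper-Pearson 95% interval 31.4 to 66%) and by 30.3% of all nuclear peaks, and since folds chose the genes nothing is read from that difference. Folds of at least 100 were listed for 6 of the 35, and for 0.961% of nuclear peaks.

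**Figure D1:**
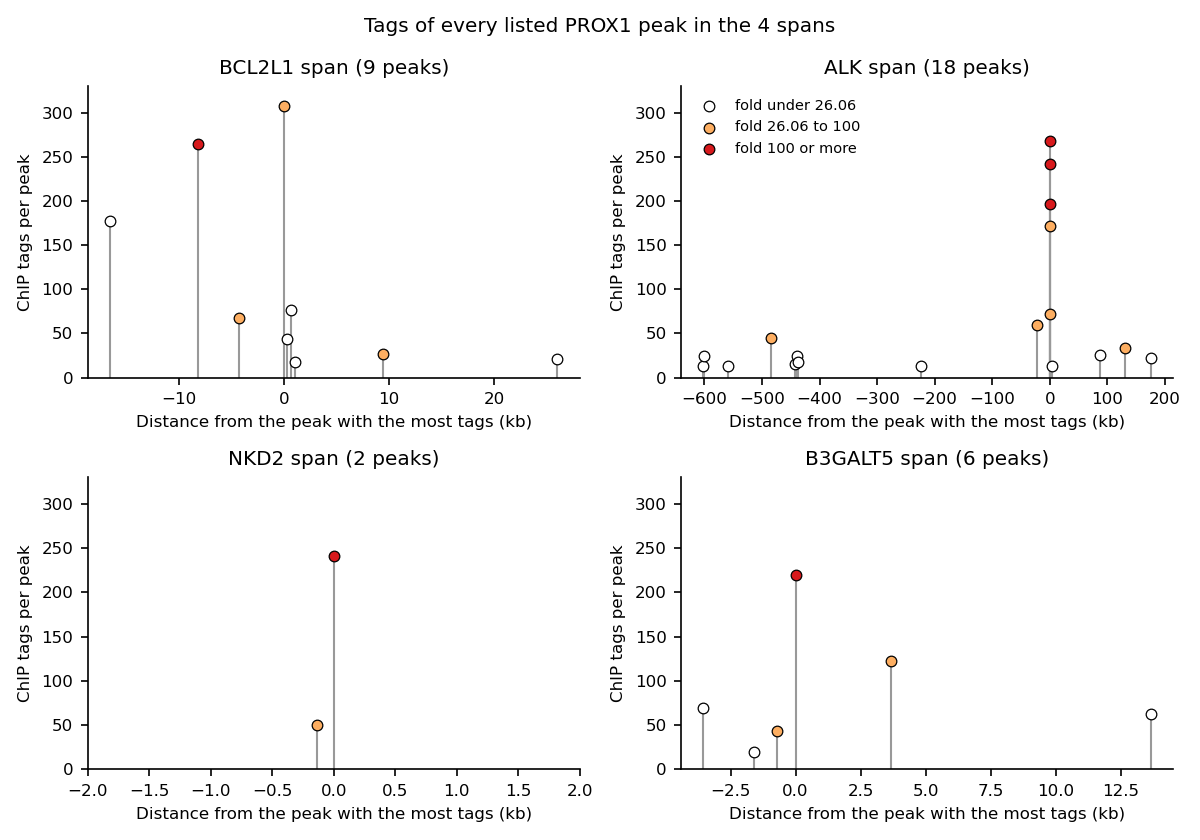
ChIP tags (vertical axis) of each listed peak against its distance in kb from the peak with the most tags in its window (horizontal axis, with a different range in each panel). Each stem is 1 peak, and its colour gives the class of fold. BCL2L1 has 3 separate tall stems, of 177, 264 and 307 tags, ALK has its 5 tallest at nearly one position, NKD2 has a pair, and B3GALT5 has 1 stem of 220 tags with 5 lower ones around it.

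At BCL2L1, the peak with the most tags was not the peak with the highest fold. The most tags, 307 (exact Poisson 95% interval 273.6 to 343.3), were in the peak at chr20:29764231-29764331, which had a fold of 43.97. The highest fold, 264.66, belonged to a peak 8.12 kb away at chr20:29756091-29756231, with 264 tags (233.1 to 297.8). These tag counts differed by a factor of 1.16 (exact interval 0.983 to 1.38). The interval includes equal counts, but the peaks were picked as the highest in tags of the window, so it is a description only. In fold the order was turned, and the number of input tags behind each peak, inferred from tags and fold, was 7 for the first and 1 for the second.

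An inferred input of 1 may stand for 0 or 1 tag, so a fold of this kind is poorly bounded. Counting error alone gave an interval of 47.1 to 10492.5 for the fold of 264.66 and of 21.1 to 110.3 for that of 43.97, and the intervals overlap. The ranks of the leading BCL2L1 peaks in the whole list differ between tags and fold. Among 23417 nuclear peaks, the peak of 264 tags ranked 77th in tags and 4th in fold, while the peak of 307 tags ranked 52nd in tags and 2428th in fold.

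The other BCL2L1 peaks lay on both sides of these. The peak at chr20:29747771-29747811 had 177 tags, next in order after the leading pair, but a fold of 19.72 at an inferred input of 9. Between the leading peaks, chr20:29759971-29760111 had 67 tags and a fold of 33.58. Just beyond the peak of 307 tags came a row of 3 smaller ones, at gaps of 180, 300 and 340 bp, with 44, 77 and 18 tags. Together these 4 covered 1160 bp and held 446 tags, 44.5% of the tags of the window. Single peaks of 27 and 21 tags followed at chr20:29773711-29773751 and chr20:29790291-29790331. The 9 peaks thus fell in a stretch of 42.6 kb, and no listed peak lay within 84.5 kb to one side of it or 299.1 kb to the other.

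Some BCL2L1 peaks had raised input. An inferred input of 5 or more lay behind 3 of its 9 peaks, against 1 of 18 at ALK, 1 of 6 at B3GALT5 and 0 of 2 at NKD2. In all nuclear peaks the share was 4.42%, and on chromosome 20 it was 11.9%. The part of this in the tag counts of the gene was not tested.

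Taking about 50 kb off each end of the window leaves 58 kb for BCL2L1 itself, close to the 59.5 kb that RefSeq gives the gene on GRCh38, where it lies on the minus strand between COX4I2 and TPX2. Of the 9 peaks, 8 lay in that inner part. The peak of 307 tags was about 9.72 kb and the peak of 264 tags about 17.8 kb downstream of its 5′ end. The peak nearest to the 5′ end was that of 27 tags (fold 27.07), about 0.269 kb inside. The window edges are rounded, so these distances are approximate, and no exon or intron was assigned because no hg18 annotation was used. RefSeq lists 2 start sites for the gene on GRCh38, and both are shown because a listed peak lay this close to the 5′ end. Each sequence runs 5′ to 3′ on the minus strand, and capitals mark the first 50 bases from the start site. The position of the hg18 peak within or beside these windows was not determined.
BCL2L1 outer start, GRCh38.p14 chr20:31723914-31724213: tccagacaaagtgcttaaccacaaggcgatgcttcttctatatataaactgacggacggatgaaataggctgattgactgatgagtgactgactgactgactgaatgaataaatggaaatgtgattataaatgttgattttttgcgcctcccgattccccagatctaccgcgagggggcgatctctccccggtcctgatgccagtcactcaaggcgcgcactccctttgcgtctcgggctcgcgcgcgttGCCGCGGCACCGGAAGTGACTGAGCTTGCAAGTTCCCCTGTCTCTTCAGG
BCL2L1 inner start, GRCh38.p14 chr20:31722819-31723118: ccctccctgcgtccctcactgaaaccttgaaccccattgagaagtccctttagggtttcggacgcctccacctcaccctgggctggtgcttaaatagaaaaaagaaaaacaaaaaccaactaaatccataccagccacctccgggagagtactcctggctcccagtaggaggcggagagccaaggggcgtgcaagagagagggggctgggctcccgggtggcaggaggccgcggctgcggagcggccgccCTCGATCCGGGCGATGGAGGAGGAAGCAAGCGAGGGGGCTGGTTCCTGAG
The outer window has 52.0% G and C and the inner one 61.3%, against a median of 58.7% over 35116 RefSeq promoter windows of 300 bases.

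At ALK, the tags were gathered in one short stretch. The 5 peaks with the most tags were neighbours, between chr2:29824471-29824511 and chr2:29825631-29825751, and had, in that order along the chromosome, 268, 196, 242, 172 and 72 tags. The stretch covered 1280 bp of the 829 kb window and held 950 of its 1268 tags (74.9%). These are sums over listed peaks, and whether a read can count in more than 1 adjacent peak is unknown. When all nuclear peaks with gaps of 1 kb or less were joined into 19001 places, the stretch ranked 6th in tags. It was 1 of 55 places (0.289%) with 5 or more peaks.

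The first 3 peaks of the stretch were each 40 bp wide and separated by gaps of 80 bp. Their folds were 134.33, 196.49 and 242.6, and their inferred inputs 2, 1 and 1. The fold order is the reverse of the tag order for the outer pair, where the peak with more tags (268, interval 236.9 to 302.1) has the lower fold and that with fewer (242, interval 212.5 to 274.5) the higher. The fold intervals, 36.8 to 1114.9 and 43.1 to 9621.3, overlap, and the order rests on 1 inferred input tag. The remaining peaks of the stretch, 720 bp further on, had folds of 28.74 (172 tags, inferred input 6) and 26.06 (72 tags).

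Such a group of high folds occurred once in the list. The 225 nuclear peaks of fold 100 or more fell into 216 places when those within 1 kb of each other were joined. Of these places, 8 held 2 or more such peaks, and 1, that of ALK, held 3. ALK was chosen from these same tags and folds, so that it stands out here is a description only. The counting intervals of its 3 folds start at 36.8, 34.9 and 43.1, so the number that reach 100 is uncertain. Whether the 3 ALK peaks are separate sites or a single site listed in pieces was not tested. A gap of 80 bp is the smallest found next to any of the 225, and 34 of them had it. Gaps of 100 bp or less were found for 28.9% of the 225 and for 9.91% of all nuclear peaks.

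**Figure D2:**
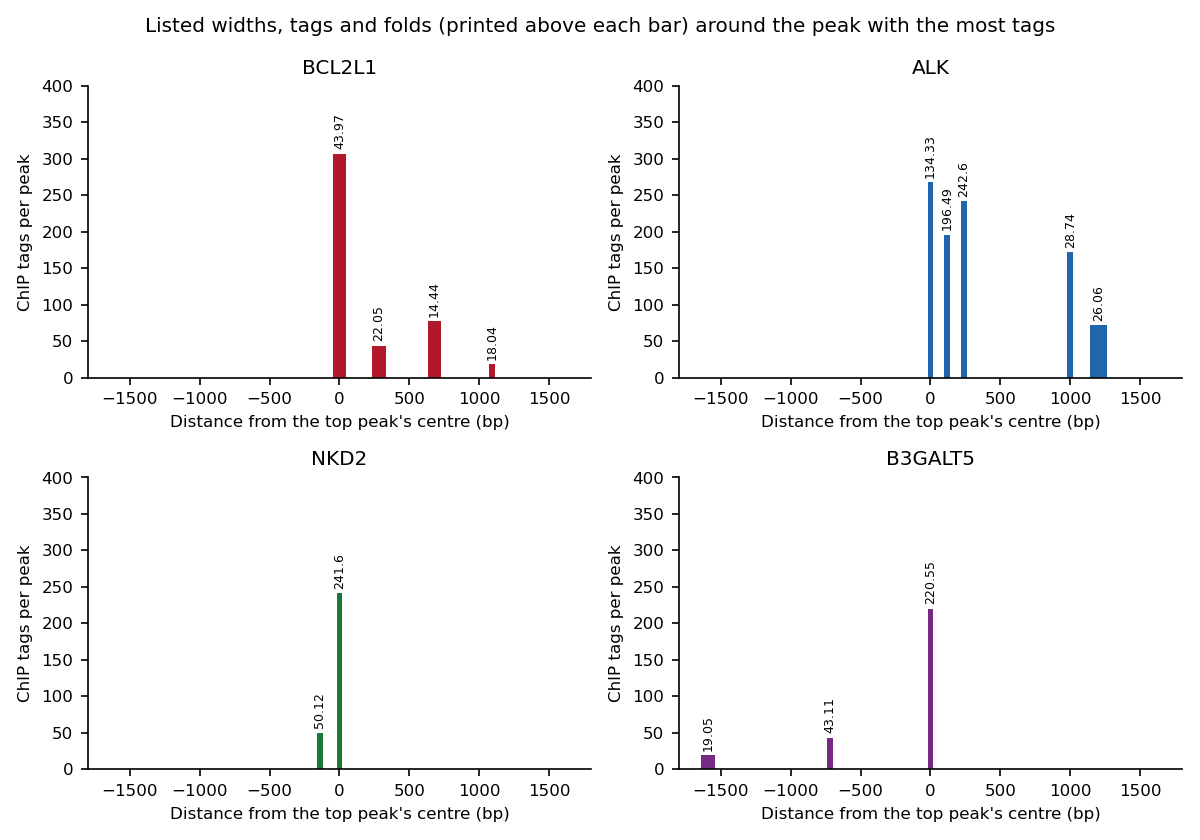
Listed peaks around the peak with the most tags in each window, drawn with their listed widths (horizontal axis, bp from the centre of that peak) and ChIP tags (vertical axis), with the deposited fold printed above each bar. ALK shows 3 bars of 196 to 268 tags spaced 120 bp apart and a pair about 1 kb away, and BCL2L1 a wide bar of 307 tags with 3 lower ones. NKD2 shows a bar of 241 tags beside one of 50, and B3GALT5 a tall bar of 220 tags with lower ones of 43 and 19 on one side.

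Away from that stretch, ALK peaks had fewer tags. The other 13 peaks held between 13 and 60 tags, and 3 of them were strong, with folds of 60.15, 45.11 and 33.08. Some lay close together, with gaps of 240 and 420 bp in 2 pairs, and 1 lay 1.8 kb from the stretch. The highest of them, chr2:29802131-29802251 with 60 tags, lay 22.3 kb away, and the next, chr2:29339471-29339531 with 45 tags, lay 485.0 kb away. Stretches of 214.0 and 201.7 kb, on either side of a peak of 13 tags, held no listed peak at all. Input cannot be seen in these gaps, because only peaks are listed.

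The inner part of the ALK window spans 729 kb, as RefSeq has it on GRCh38 (728.8 kb, minus strand, between CLIP4 and YPEL5), and contains 14 of the 18 peaks. The 5-peak stretch lay about 172.3 to 173.5 kb downstream of its 5′ end, far from the start of the gene. The peak closest to that end was chr2:29999651-29999691, about 1.67 kb upstream, with 22 tags and a fold of 22.05. The promoter window at the outermost RefSeq start is shown for comparison with BCL2L1. It is rich in G and C (71.0%, above 81.9% of RefSeq windows), runs 5′ to 3′ on the minus strand, and again has the first 50 bases from the start in capitals.
ALK outer start, GRCh38.p14 chr2:29921537-29921836: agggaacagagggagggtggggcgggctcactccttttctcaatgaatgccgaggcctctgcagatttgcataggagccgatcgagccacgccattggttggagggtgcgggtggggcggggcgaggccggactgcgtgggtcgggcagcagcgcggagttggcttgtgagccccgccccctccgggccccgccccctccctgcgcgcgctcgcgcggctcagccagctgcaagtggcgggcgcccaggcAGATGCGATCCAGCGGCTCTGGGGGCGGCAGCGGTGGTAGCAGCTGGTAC

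At NKD2, a single pair of peaks made up all the listed signal of the window. The peak at chr5:1056571-1056611 had 241 tags (interval 211.5 to 273.4) and a fold of 241.6, and its partner at chr5:1056431-1056471 had 50 tags (37.1 to 65.9) and a fold of 50.12. Both were 40 bp wide, with 100 bp between them, and both had an inferred input of 1. The first peak held 4.82 times the tags of the second (exact interval 3.54 to 6.67). The peaks were ordered by these tags, so the interval is a description only. The first peak also held 82.8% of the tags of the window, the largest share among the 4 genes. That share is divided among only 2 peaks here, against 6, 9 and 18 in the other windows, which favours a large value. The ratio depends on the edge of the window: widened by 50 kb on either side, it takes in a peak of 189 tags at chr5:984231-984271, and the ratio to the next peak is then 1.28.

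The NKD2 pair lay outside the inner part of its window, whereas the leading peaks of the other 3 genes lay inside theirs. RefSeq places the gene on the plus strand, 30.1 kb long, next to SLC12A7. Relative to the inner 30 kb of the window, the peaks of 241 and 50 tags were about 5.41 and 5.55 kb upstream of the 5′ end, and no listed peak fell inside those 30 kb. The next peaks were 45.7 kb upstream of the pair and 109.3 kb downstream. The nearer of them, chr5:1010551-1010771, was just outside the window by 1.34 kb, with 148 tags over 220 bp and a fold of 15.41. Against that wider neighbour the NKD2 peak had 1.63 times the tags.

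At B3GALT5, the leading peak stood within a loose group. The peak at chr21:39927771-39927811 had 220 tags (interval 191.9 to 251.1), a fold of 220.55 at an inferred input of 1, and led the window in both measures. The second in tags, chr21:39931371-39931531, had 122 tags (101.3 to 145.7) and a fold of 40.77, was 160 bp wide and lay 3.66 kb away. The leading peak thus had 1.8 times its tags (exact interval 1.44 to 2.27, again a description only). On the other side, peaks of 43, 19 and 69 tags lay 0.72, 1.59 and 3.54 kb from the leading one, and the last peak of the group, with 62 tags, lay 13.6 kb away. Of these 4, only the nearest was strong, with a fold of 43.11.

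The B3GALT5 group stood alone. Its 6 peaks spanned 17.2 kb, or 7.97% of the window, and the next listed peaks were 245.6 kb and 215.7 kb away. All 6 lay in the inner 116 kb of the window. That inner part is longer than the 60.2 kb RefSeq gives the gene on GRCh38, so distances to a start site were not read for it, and which of the 6 peaks lie in the gene was not determined. RefSeq has the gene on the plus strand, between SH3BGR and IGSF5.

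**Figure D3:**
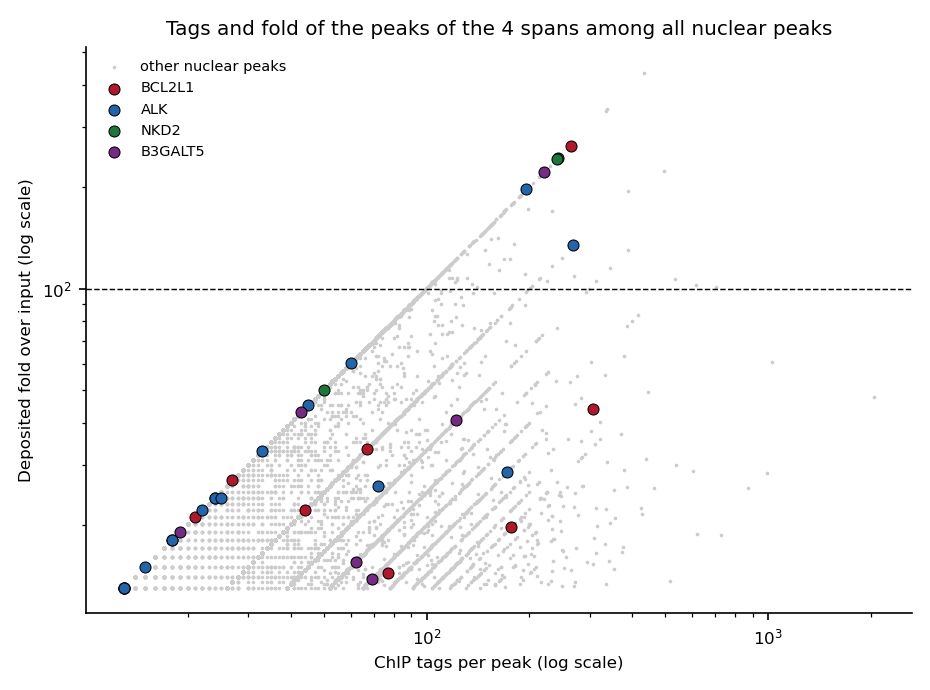
Deposited fold over input against ChIP tags for all nuclear peaks (grey) and the 35 peaks of the 4 genes (coloured), both axes on a log scale, with a dashed line at a fold of 100. The upper diagonal edge holds peaks with an inferred input of 1, where fold follows tags. The leading peaks of NKD2 and B3GALT5 and the highest folds of ALK and BCL2L1 lie on it, while the BCL2L1 peak of 307 tags lies well below at a fold of 43.97.

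Across the genes, the leading peaks lay closer together in tags than in fold, but it was tags that picked them. The peaks with the most tags held 307 at BCL2L1, 268 at ALK, 241 at NKD2 and 220 at B3GALT5, and ranked 52nd, 76th, 95th and 128th of the nuclear list. Their folds were 43.97, 134.33, 241.6 and 220.55, an order in which the genes with the most tags come last. Counting intervals of these folds were 21.1 to 110.3, 36.8 to 1114.9, 43 to 9581.7 and 39.2 to 8750.2. They overlap, so the order is a description only. Picked by fold instead, the peaks lay close together in that measure too. The highest folds were 264.66, 242.6, 241.6 and 220.55, at ranks 4, 5, 6 and 9. Each of these 4 highest folds was reached at an inferred input of 1. The same held for 186 of the 225 peaks of fold 100 or more (82.7%) and for 71.9% of all nuclear peaks. A deposited p-value printed as 0 was found for 5 of the 35 peaks, namely the highest-fold peak of each gene and the ALK peak of 196 tags, and for 21 nuclear peaks in all. These 5 have the highest folds of the 35, and the p-value never rose with fold among them. It restates the folds that chose the genes, so nothing further is read from it.

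For BCL2L1 and ALK, but not for NKD2 and B3GALT5, another peak of the window had more tags than the one with the highest fold. The same was found for 62 of the 225 peaks of fold 100 or more (27.6%), counting peaks within 50 kb. By that count the highest-fold peak of BCL2L1 held 0.86 times the tags of its strongest neighbour and that of ALK 0.903 times. At NKD2 and B3GALT5 the values were 1.63 and 1.8 times.

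In width, the leading peaks covered the range usual in the list. The highest-fold peaks of ALK, NKD2 and B3GALT5 were listed at 40 bp, the smallest width in the list, but that of BCL2L1 was 140 bp and its peak of 307 tags 100 bp. A width of 40 bp was found in 19 of the 35 peaks, with 9 of 18 at ALK, 4 of 9 at BCL2L1, 4 of 6 at B3GALT5 and 2 of 2 at NKD2. In all nuclear peaks this width made up 57.2%, and in those of fold 100 or more 50.2%. At ALK, 2 of the 4 peaks with 13 tags, the fewest of the list, had the same width of 40 bp as the peak of 268 tags. The description of the leading peaks as narrow therefore holds for 3 of the 4 genes, and that width is the commonest in the list as well.

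The nearest listed peak lay within 1 kb of the peak with the most tags at each of the 4 genes, with gaps of 0.18 kb at BCL2L1, 0.08 kb at ALK, 0.1 kb at NKD2 and 0.68 kb at B3GALT5. For the highest-fold peak the gap was longer at BCL2L1. That peak had its nearest neighbour at 3.74 kb at BCL2L1, at 0.68 kb at B3GALT5, at 0.1 kb at NKD2 and at 0.08 kb at ALK. Over the 225 nuclear peaks of fold 100 or more, the median was 0.26 kb and the upper quartile 3.82 kb, and over all nuclear peaks the median was 5.76 kb. Of the former, 64.9% had another peak within 1 kb, and of the latter 33.1%. The highest-fold peak of BCL2L1 lay close to that upper quartile, with 74.2% of the 225 having a smaller gap. None of the 4 highest-fold peaks was among the 8.44% of high-fold peaks that had no other listed peak within 50 kb. In all nuclear peaks that share was 20.1%, and with only 4 peaks nothing is read from this.

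**Figure D4:**
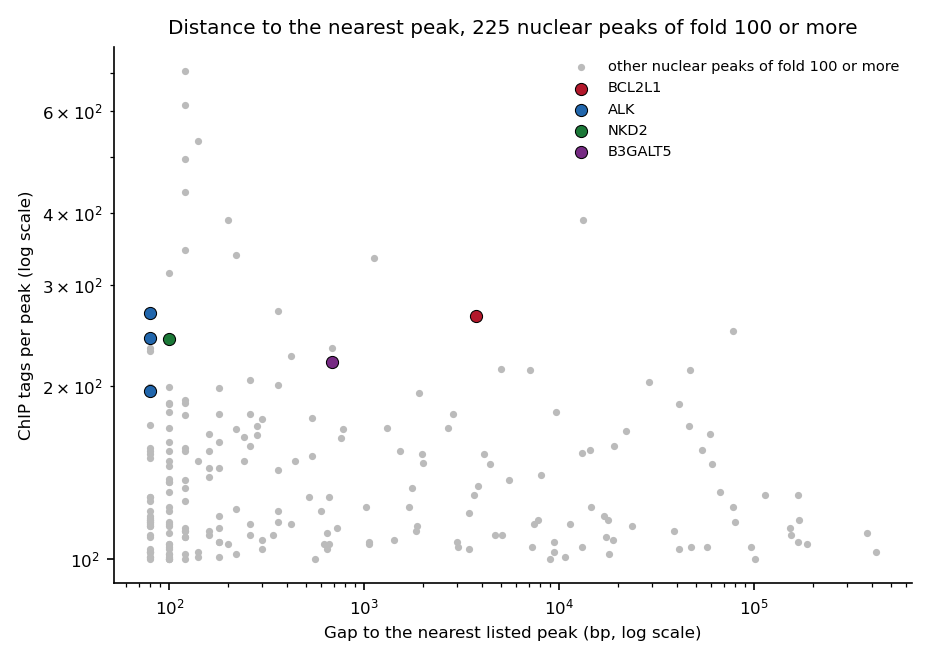
ChIP tags against the gap in bp to the nearest listed peak for the 225 nuclear peaks of fold 100 or more (log axes), with the 6 that belong to the 4 genes in colour. The 3 ALK peaks sit at the smallest gap, 80 bp, NKD2 at 100 bp, B3GALT5 at 680 bp and BCL2L1 at 3740 bp.

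Joining peaks within 1 kb changed the order of the genes. ALK then led with 950 tags in one place, followed by BCL2L1 with 446, NKD2 with 291 and B3GALT5 with 282, at ranks 6, 36, 139 and 154 of the 19001 places. At BCL2L1 the joined place was that of the 307-tag peak, and the highest-fold peak stayed alone with 264 tags. The ALK place held 15.8 times the tags of the next place in its window, against 2.31 times at B3GALT5 and 1.69 times at BCL2L1, while NKD2 had no second place.

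The windows were drawn around the genes, and some listed peaks lay just past their edges. These were chr20:29663091-29663231 at BCL2L1 (16 tags, 2.84 kb beyond the edge), chr2:29187471-29187511 at ALK (13 tags, 31.5 kb beyond) and, at NKD2, the peak of 148 tags already given. Just inside, at ALK, was chr2:29222651-29222791, with 13 tags. Within 100 kb beyond the edges, the highest peaks held 93 tags at BCL2L1, 75 at ALK and 189 at NKD2, each fewer than the leading peak of the gene. At B3GALT5 no peak was listed there, and the nearest outside peak had 18 tags and lay 121.4 kb beyond.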

How the data were processed

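One PROX1 ChIP library and 1 input library of SW480R cells were sequenced, per the labels, and the deposited peak list of the first against the second was used. The submitters' processing notes name hg18 as its build. The sources used here give no aligner, peak caller, threshold or library depth. Columns carry no names and were read from their values. Deposited tag counts are whole, not normalized, and at least 13. The deposited fold is a ratio of ChIP to input tags. The deposited p-value does not exceed 0.00099 and may be a q-value. Coordinates are printed as listed, since whether starts count from 0 or 1 is unknown.

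Input tags were inferred as 1.0025 times tags over fold, the constant coming from peaks over 100 tags. The result was whole, within 0.02, for 32 of the 35 peaks and 91.6% of the list, and is approximate elsewhere. Fold intervals treat ChIP and inferred input tags as counts of a binomial share, and were left out where input was not whole. All listed widths are multiples of 20 bp. Gaps run from edge to edge, other distances from centre to centre. Tags of windows and joined places are sums over listed peaks, which may count a read more than once. Nuclear means without mitochondrial peaks. The leading peak was that with the most tags. In windows of up to 12 peaks each was named, in ALK the 5 with the most tags, others there being chosen after their values were seen. Intervals are exact at 95%. Those of tag ratios take no account of the peaks being picked as the highest of their window, and serve as descriptions. Alternatives covered ranking by fold, window size, overlap, stricter folds and joined peaks. The members and all choices were made with earlier results of these data known. Chromosome lengths came from GenomeInfoDb 1.38.1 (R 4.3.3). Python 3.11.15, numpy 2.4.6, scipy 1.17.1, pandas 2.3.3 and matplotlib 3.10.9 were used, and the functions were tested on simulated peaks. Gene names, strands, lengths and promoters came from RefSeq on GRCh38, with all 4 genes matched, and no coordinate was converted between builds.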

Additional observations from a re-analysis of the deposited data

How the results depend on the processing

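Of 84 alternative values over the 4 genes, 61 were called the same and 23 were not. The same meant an unchanged peak or gap, a similar count of peaks, or a value within the counting interval. Counts called similar fell as far as from 9 to 6 at BCL2L1, 18 to 12 at ALK and 6 to 4 at B3GALT5. All 4 alternatives for the width gave another width. No value comes from a test, so none lost or gained significance. Ranked by fold, the leading peak was that of 264 tags at BCL2L1 and 242 at ALK. At 2 times the lowest fold or more, 4 peaks were left at BCL2L1, 8 at ALK and 3 at B3GALT5, and the gap of the BCL2L1 peak of 307 tags was 4120 bp instead of 180 bp. Windows widened by 50 kb and 100 kb held 14 and 16 peaks at BCL2L1, and 7 and 9 at NKD2, where the ratio of the top peak to the next fell from 4.82 to 1.28 in both because of a peak of 189 tags. Windows narrowed by 50 kb held 0 peaks at NKD2, so it gave no other value there. With peaks within 1 kb joined, NKD2 had 1 place and no ratio. The ratios were 1.69 at BCL2L1, 15.8 at ALK and 2.31 at B3GALT5, and the places measured 1160, 1280, 180 and 1660 bp at BCL2L1, ALK, NKD2 and B3GALT5. Ratios of folds were 6.02 at BCL2L1 and 5.12 at B3GALT5. The share of strong peaks, whose alternatives were added after the data were seen, rests on 2 to 18 peaks, and its intervals are too wide to show stability. In windows widened by 50 and 100 kb it was 57.1 and 44.4% instead of 100% at NKD2, and 28.6 and 31.2% instead of 44.4% at BCL2L1. No paired analysis was possible because there is 1 library of each kind and no test. Low inferred input limits the folds. Each alternative changed 1 choice at a time, and the causes of the changes were not tested.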
